A study of Canis lupus familiaris with 14 samples.

Results

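The genes described here are 104 small single-exon genes of dog, 60 to under 110 bases long, that gave counts in whole blood. They were taken from a table of 30951 genes. A member lies on a numbered chromosome or X, has 1 exon interval after overlapping intervals are merged, and has at least 10 counts in at least 7 of the 14 libraries. The members were chosen by their structure and by the counts of all 14 libraries, so their being detected is not a result. Blood was taken from 7 dogs with lymphoma, which is a malignancy of lymphocytes, and from 7 controls that had other, non-lymphoma disease. No treatment, breed, age or lymphoma type is used here for any group. The labels list each library as a separate sample and say nothing more of the animals, so a p-value reflects only how these 14 libraries vary.

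Genes of this size in mammals mostly encode structured non-coding RNAs. Box C/D small nucleolar RNAs (snoRNAs) guide the methylation of ribosomal RNA and are commonly processed out of introns of a host gene, often several from 1 host. U6 small nuclear RNA is the catalytic core RNA of the spliceosome, is made by RNA polymerase III from its own promoter, and has many near-identical copies and pseudogenes in the genome. MicroRNA precursors are hairpins from which a shorter RNA that silences messenger RNAs is cut. Transfer RNAs, which carry amino acids to the ribosome, fall in the same range.

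The table names genes by Ensembl identifier with positions in CanFam3.1 and gives no symbols. When looked up in RefSeq's genes for UU_Cfam_GSD_1.0, 0 identifiers matched, so no member could be assigned to an RNA family, and members are named by position. By length alone, RefSeq lists 2425 dog genes of 60 to under 110 bases on that assembly. Of these, 951 are snRNA genes, 642 tRNA genes, 264 snoRNA genes and 261 microRNA genes. Of the snRNA genes, 947 measure 100 bases or more, 377 of them exactly 107. The snoRNA genes are most numerous at 70 to 79 bases (122 genes) and the microRNA genes at 60 to 69 bases (126 genes). Sequences of the members were not used here.

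Lymphoma libraries totalled 9845059 to 14831589 counts each and non-lymphoma libraries 13522628 to 21610927. The members received 3950 to 6805 counts per lymphoma library and 5549 to 7428 per non-lymphoma library. As a share of the library this came to 0.044 ± 0.00455% (SD, n = 7) in lymphoma, against 0.0384 ± 0.0051% (SD, n = 7) in the controls, and the ranges of the groups overlapped. This difference depended on which genes were counted. Without the most abundant member the shares were 0.0331 ± 0.00521% and 0.0321 ± 0.00386% (SD, n = 7 each). With mitochondrial and scaffold genes left out of the totals they were 0.0565 ± 0.0053% and 0.0475 ± 0.00456%, and with the 20 most abundant genes left out 0.076 ± 0.00976% and 0.0567 ± 0.00682% (SD, n = 7 each). Lymphoma replicates 2 and 7 had the smallest totals, had 7 and 4 members at 0 counts, and had the lowest TMM scaling factors, 0.67 and 0.679. Replicate 2 was also extreme in both directions: it had the lowest level of 25 members and the highest level of 22. The labelled tissue was not checked against marker genes, since no symbol could be matched.

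Of 1839 single-exon genes of this size on placed chromosomes, 753 had no count in any library and 982 had counts but fell short of the rule. Detection depended on length. Members made up 15.3% of the annotated genes of 60 to 69 bases (19 of 124) and 12.3% of those of 70 to 79 bases (25 of 203). The share was 8.06% at 80 to 89 bases (15 of 186), 7.04% at 90 to 99 bases (15 of 213) and 2.7% from 100 bases on (30 of 1113). The last bin contains 384 annotated genes of exactly 107 bases, of which 8 were members. At 69 bases, 7 of 23 genes were members. Since fragments that map to several places are not counted under the settings in the file header, unless the aligner leaves them unmarked, genes with near-identical copies can be undercounted, and copy number was not examined.

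**Figure D1:**
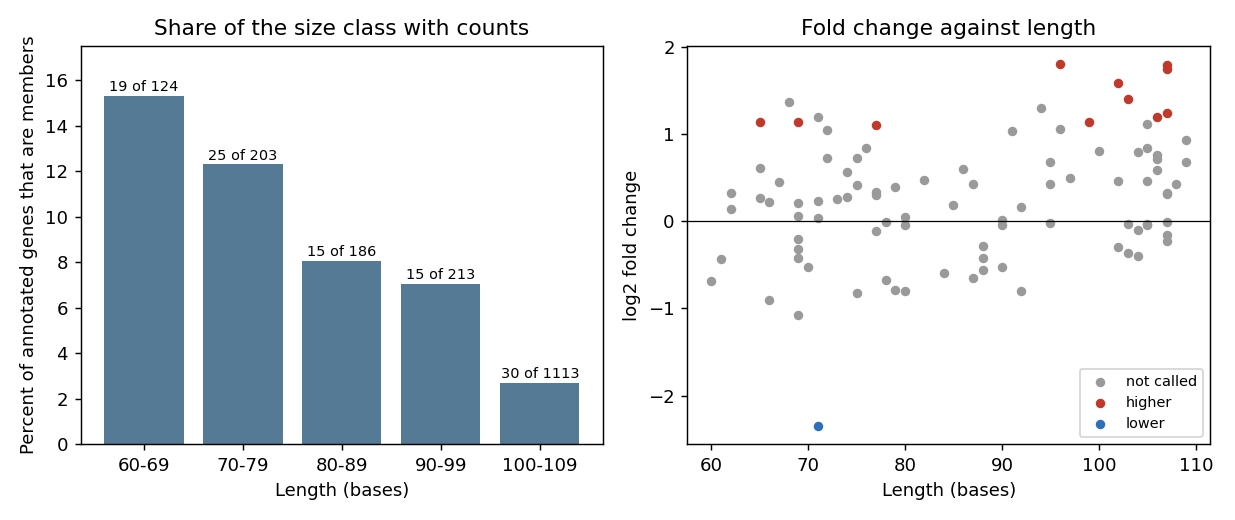
Left: percent of annotated single-exon genes in each 10-base length bin that are members, with the numbers above the bars. Right: log2 fold change (lymphoma over non-lymphoma) of the 96 tested members against length, coloured by edgeR call. The share of members drops from 15.3% at 60-69 bases to 2.7% in the bin from 100 bases. Of the 11 genes called higher, 6 are among the 30 tested members of 100 bases or more. Among all genes tested, 9.21% were called higher, and no test of the length was made.

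Members were spread over the genome, with the most on chromosome 7 (15), chromosome 9 (11) and chromosome 1 (8). Their position relative to other genes was not part of the rule. Of the 104 members, 52 lay inside an intron of a multi-exon gene on their own strand, 12 inside an intron on the opposite strand, and 39 between genes. The remaining one, of 67 bases on chromosome 9 at 12301855 to 12301921, overlapped an exon on its own strand. Of all 531 annotated genes of this size in a same-strand intron, 9.79% were members. The share was 3.43% of the 350 in an opposite-strand intron and 4.33% of the 901 between genes. The counting used no strand option, so reads of opposite strands could not be told apart.

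A few genes held most of the counts. The 2 most abundant members took 32.4% of all member counts and the 10 most abundant 60.5%, whereas the median member had 268.5 counts over all 14 libraries. Levels are compared between genes as CPM (the count relative to the library's total in units of 1000000, scaled with TMM factors) per 100 bases. The highest mean level over the 14 libraries, 134 CPM per 100 bases, belonged to ENSCAFG00000025711, a 69-base gene between genes on chromosome 9 at 43030863 to 43030931. A 76-base gene on chromosome 18 at 53842200 to 53842275 followed with 73.6. The exon-overlapping 67-base gene of chromosome 9 had 47, a 103-base gene of chromosome X at 50838131 to 50838233 had 27, and a 73-base gene of chromosome 21 at 7022351 to 7022423 had 21.7. These 5 led the order, and the median level was 2.07 CPM per 100 bases for members of 60 to 69 bases and 1.31 for those of 100 bases or more. Division by length raises shorter genes relative to longer ones, so these medians do not show that shorter members had more counts.

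The groups were compared to ask which of these genes differ in counts in blood of dogs with lymphoma. Whether the counted reads came from the small RNA itself or from a longer transcript across it was not examined. For members in introns, unspliced host transcripts could be counted too. A filter on low counts left 96 of the 104 members, and edgeR's quasi-likelihood test called 11 higher and 1 lower in lymphoma at an adjusted p under 0.05 over all 12836 genes tested. Among all genes tested, 9.21% were called higher and 7.4% lower, against 11.5% and 1.04% of the members. The share of members called higher was thus close to that of all genes, and the share called lower was smaller. The median SE was 0.38 for members and 0.27 for all genes, so similar shares called do not mean similar changes. At an unadjusted edgeR p under 0.05, 22.9% of members were higher and 4.17% lower, against 17.3% and 17.3% of all genes. The median log2 fold change was 0.29 over the 96 members and -0.05 over all genes, and 61 members (63.5%, against 47.3% of all genes) had a fitted value above 0. The median of the members stayed between 0.23 and 0.31 with 3 other scalings. Single-exon genes of 110 to under 200 bases gave nearly the same counts of calls and median, with 11 of 99 called higher, 1 lower and a median of 0.29. Among them 74.7% had a fitted value above 0, and 6 had every lymphoma library above every non-lymphoma library, against 2 members; these differences were not tested. Single-exon genes of 200 bases or more had 35 of 590 called higher, 70 lower and a median of -0.23. In blood, fewer cells of a type and less RNA per cell cannot be told apart.

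The rule on raw counts leaned towards non-lymphoma blood, whose libraries were deeper. More non-lymphoma than lymphoma libraries reached 10 counts for 54 members, the reverse held for 13, and 37 were even. For 24 members all 7 non-lymphoma but not all lymphoma libraries reached 10 counts, and for 3 all 7 lymphoma but not all non-lymphoma libraries did, so 1 group sufficed for the rule. The gene called lower is among the 24, and 2 genes called higher, at 51315049 on chromosome 17 and 5307553 on chromosome 20, are among the 3. These genes met the rule through the group in which they are high. Among the others called higher, 2 leaned the same way. The gene at 9098783 on chromosome 32 had 6 lymphoma and 3 non-lymphoma libraries at 10 counts, and that at 59547468 on chromosome 17 had 6 and 4. The 14 members with exactly 7 libraries at 10 counts had mean counts of 7.86 to 14.5, and the 11 genes just outside, with 6 such libraries, had 7.57 to 12.9. The 8 members that were not tested had 110 to 175 counts in all.

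A 5-digit sample number is given in the labels for every non-lymphoma library but for only 2 from lymphoma, while the other 5 are numbered differently. Whether numbering marks a batch is not stated. Within the 5-digit libraries few genes of any kind were called by edgeR, 0.562% higher and 0.151% lower, and 0 of 104 members were. At an unadjusted p under 0.05, 14 members were higher and 6 lower there (13.5% and 5.77%, against 8.09% and 8.2% of all genes). All 11 genes called higher over the full set kept a log2 fold change above 0 within the 5-digit libraries, from 0.6 to 1.86, with a lowest edgeR adjusted p of 0.107. On all 14 libraries DESeq2 called 19 members higher and 1 lower (19.8% and 1.04%, against 13.3% and 11.5% of all genes), the 11 of edgeR among the 19. Limma-voom called 11 higher and 1 lower (11.5% and 1.04%, against 8.15% and 7.34% of all genes). Of the 11 called by limma-voom, 9 were those of edgeR, and ENSCAFG00000025711 and the gene of chromosome 1 at 44093398 were not called. Without lymphoma replicates 2 and 7, the 2 shallowest libraries, edgeR again called 11 members higher and 1 lower, against 5.89% and 3.93% of all genes, but only 5 of the 11 were the same genes: both of chromosome 17, the one of chromosome 7, the 107-base one of chromosome 32 and the 99-base one of chromosome 1, each described below.

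**Figure D2:**
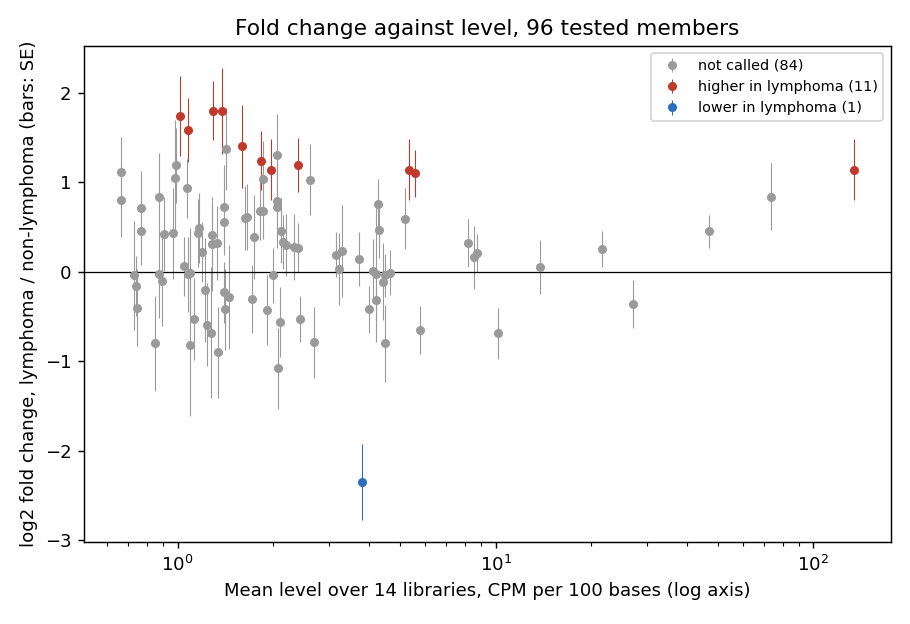
Log2 fold change of the 96 tested members (bars: SE) against mean level over the 14 libraries in CPM per 100 bases, on a log axis. The 11 genes called higher lie between 1.1 and 1.8 and span low and high levels, including the most abundant member; the 1 gene called lower stands apart at -2.35.

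Among the 10 members with the highest level only ENSCAFG00000025711 was called. Its level was 37.4 to 220 CPM in lymphoma, with a median of 114, and 35.3 to 84.6 CPM in non-lymphoma blood, with a median of 62.9. Of the 7 lymphoma libraries, 5 lay above every non-lymphoma library, and replicate 5 lay at the bottom, within the non-lymphoma range. The log2 fold change was 1.14 (SE 0.34, edgeR adjusted p = 0.0305). Leaving out non-lymphoma replicate 6 or 7, or lymphoma replicate 2 or 7, ended the call (highest edgeR adjusted p 0.0688), and within the 5-digit libraries the log2 fold change was 0.6 (edgeR adjusted p = 0.505).

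The next 4 in level were not called. The 76-base gene of chromosome 18 had 41 to 135 CPM in lymphoma and 14.2 to 94.8 CPM in non-lymphoma blood, with medians of 53.3 and 34.6, and all 7 lymphoma libraries lay above the non-lymphoma median (log2 fold change 0.84, SE 0.37, edgeR adjusted p = 0.116). The exon-overlapping gene of chromosome 9 had medians of 33.7 and 26.1 CPM and likewise 7 of 7 lymphoma libraries above the non-lymphoma median (0.45, SE 0.18, edgeR adjusted p = 0.0895). Fragments that touch both this gene and the exon it overlaps are not counted for either by default, so its level is uncertain. The chromosome X gene, inside an intron of a gene on the opposite strand, had medians of 20.7 CPM in lymphoma and 26.1 CPM in non-lymphoma blood (log2 fold change -0.36, SE 0.27, edgeR adjusted p = 0.36). The chromosome 21 gene had 17.8 and 14.2 CPM (0.25, SE 0.2, edgeR adjusted p = 0.381).

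Of the 96 tested members, 2 genes of chromosome 17 were the only ones whose 7 lymphoma libraries all lay above all 7 non-lymphoma libraries. Of all genes tested, 2.03% separated in this way, a share close to that of the members. The first, ENSCAFG00000027207, is a 96-base gene between genes at 59547468 to 59547563, with 7 to 30 counts per lymphoma library and 4 to 16 per non-lymphoma library. Its level was 1.06 to 2.55 CPM, median 2.08, in lymphoma and 0.274 to 0.786 CPM, median 0.611, in non-lymphoma blood. The log2 fold change was 1.8 (SE 0.33, edgeR adjusted p = 0.00405). It was called in each of the 14 fits with 1 library left out. It had 6 lymphoma and 4 non-lymphoma libraries at 10 counts, so it met the rule mostly through the group where it is high. The second, 102 bases at 51315049 to 51315150, lies inside an intron of a 27-exon gene on its strand and had 11 to 30 counts against 4 to 18. It had 1.29 to 1.99 CPM in lymphoma and 0.274 to 1.02 CPM in non-lymphoma blood (log2 fold change 1.58, SE 0.36, edgeR adjusted p = 0.0109). This second gene met the rule through the lymphoma libraries, where it is high, so its separation is given only as a description.

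Of the remaining genes called higher, 3 measure 107 bases, a length that 8 tested members share. They are described together for convenience, a grouping made after their values were seen, and no test of the length was made (9.21% of all genes were called higher). The one on chromosome 20 at 5307553 to 5307659, between genes, had 0.975 to 5.92 CPM in lymphoma and 0.21 to 1.15 CPM in non-lymphoma blood, with 6 of 7 lymphoma libraries above the whole non-lymphoma range and replicate 2 highest (log2 fold change 1.79, SE 0.48, edgeR adjusted p = 0.0199). The one on chromosome 32 at 9098783 to 9098889, in a same-strand intron, had 0.899 to 2.12 CPM against 0.11 to 1.15 CPM, again with 6 of 7 above (1.74, SE 0.45, edgeR adjusted p = 0.0176). The one on chromosome 34 at 25244339 to 25244445, between genes, had 1.57 to 5.46 CPM against 0.674 to 1.68 CPM, with 5 of 7 above (1.24, SE 0.33, edgeR adjusted p = 0.0209). These values rest on few reads, with 2 to 28 counts per non-lymphoma library over the 3 genes. All 3 calls held with any 1 library left out, but none held within the 5-digit libraries. The chromosome 20 and 34 genes also lost their calls without the 2 shallowest libraries and with replicate number added to the fit. Lymphoma replicate 2 had the highest lymphoma level in all 3. The chromosome 20 gene met the rule through the lymphoma libraries, where it is high. The chromosome 32 gene met it mostly through them, with 6 lymphoma and 3 non-lymphoma libraries at 10 counts.

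Of the other 5 genes that rose, 3 lie in same-strand introns. The 106-base gene of chromosome 12 at 37264580 to 37264685 had 2.19 to 4.94 CPM in lymphoma and 0.771 to 3.05 CPM in non-lymphoma blood (log2 fold change 1.19, edgeR adjusted p = 0.0155). Non-lymphoma replicate 4 alone set the top of that range. It was also the highest non-lymphoma library for the genes called higher on chromosomes 4, 9, 20 and 32, at 44093398 on chromosome 1 and at 51315049 on chromosome 17. The chromosome 12 call held with any 1 library left out. It was lost within the 5-digit libraries, without the 2 shallowest libraries, with replicate number added to the fit and with no filter on low counts. A 103-base gene of chromosome 1 at 44093398 to 44093500 had medians of 1.68 and 0.771 CPM and the weakest call (1.4, edgeR adjusted p = 0.0485), which was lost in 11 of 14 fits with 1 library left out, among them lymphoma replicates 2, 3, 4, 5 and 7 and every non-lymphoma replicate but 4 (lowest log2 fold change 1.1, highest edgeR adjusted p 0.107). The 65-base gene of chromosome 4 at 19951823 to 19951887 had medians of 1.57 and 0.673 CPM (1.14, edgeR adjusted p = 0.0336) and lost its call in 8 of 14 such fits, each without 1 of lymphoma replicates 2, 4 and 5 and non-lymphoma replicates 2, 3, 5, 6 and 7 (highest edgeR adjusted p 0.0701). Between genes on chromosome 1, a 99-base gene at 105704704 to 105704802 had medians of 6.68 and 2.68 CPM (1.14, edgeR adjusted p = 0.0311). Its call was lost in 6 of 14 fits, without lymphoma replicate 3 or non-lymphoma replicate 1, 2, 4, 5 or 6 (highest edgeR adjusted p 0.0616). The fifth belongs to the chromosome 7 cluster described below.

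The 1 member that fell was ENSCAFG00000025798, 71 bases between genes on chromosome 9 at 12022844 to 12022914. It had 3 to 22 counts per lymphoma library and 27 to 140 per non-lymphoma library. In CPM the range was 0.3 to 1.48, median 0.757, in lymphoma and 1.83 to 8.13, median 4.05, in non-lymphoma blood, so the groups did not overlap. Of all genes tested, 1.75% had every lymphoma library below every non-lymphoma library. This member met the rule through the non-lymphoma libraries, where it is high, so its separation is given only as a description. The log2 fold change was -2.35 (SE 0.42, edgeR adjusted p = 0.00368) and stayed between -2.53 and -2.14 with any 1 library left out. Within the 5-digit libraries it was -2.33 (edgeR adjusted p = 0.178).

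**Figure D3:**
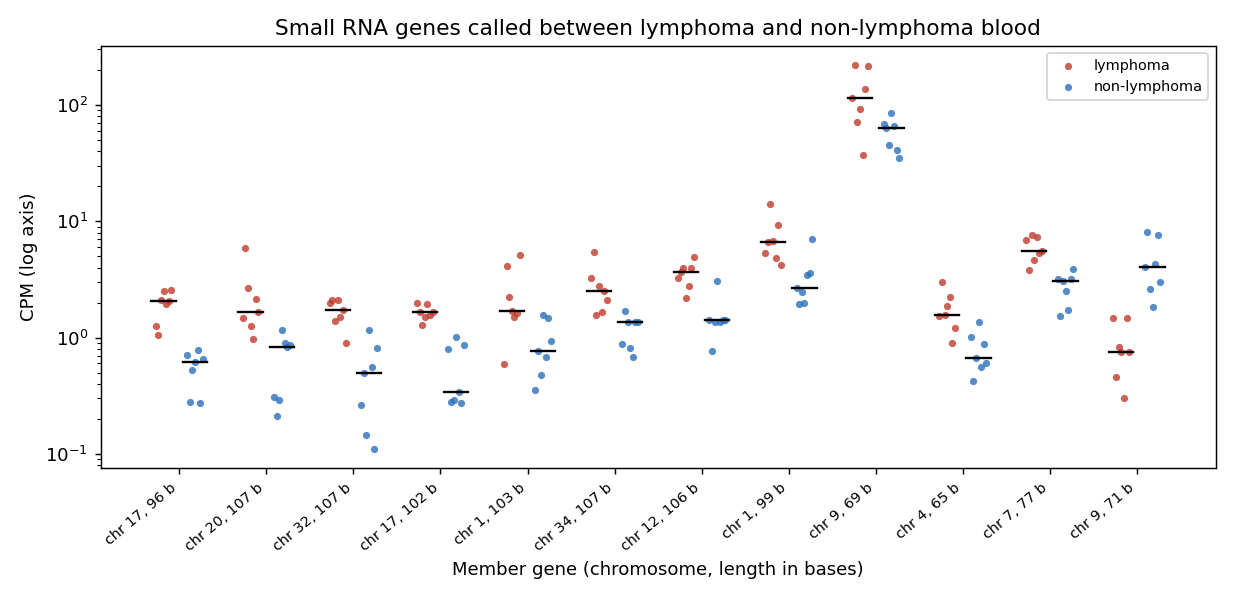
CPM on a log axis of the 12 members called between groups, ordered by log2 fold change from highest to lowest; each point is a library, red for lymphoma and blue for non-lymphoma, and black bars are group medians. The groups do not overlap in the 2 chromosome 17 genes and in the 71-base chromosome 9 gene at the right, where the order is turned.

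Members occurred in clusters, as snoRNA and microRNA genes commonly do. With gaps under 10 kb as the limit, 15 clusters had 2 or more members and 6 had 3 or more. The largest held 9 members of 62 to 80 bases on the plus strand of chromosome 7, within 3223 bases at 25362614 to 25365836, in a stretch where no other gene overlaps them. No other annotated gene of this size lies in the stretch.

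The 9 neighbours did not move together. Only the sixth, 77 bases at 25364626 to 25364702, was called. It had 3.79 to 7.65 CPM, median 5.54, in lymphoma and 1.54 to 3.92 CPM, median 3.08, in non-lymphoma blood, and 6 of 7 lymphoma libraries lay above every non-lymphoma library (log2 fold change 1.1, SE 0.26, edgeR adjusted p = 0.0112). This call held with any 1 library left out, and within the 5-digit libraries the value was 1.2 (edgeR adjusted p = 0.165). The first, 80 bases at 25362614 to 25362693, had the lowest fitted value, -0.8 (SE 0.43, edgeR adjusted p = 0.194). It had medians of 1.53 CPM in lymphoma and 4.38 CPM in non-lymphoma blood, with 5 lymphoma libraries under the whole non-lymphoma range and lymphoma replicate 2 over it. The other 7 had log2 fold changes from -0.04 to 0.33. The median Pearson correlation of log2 CPM over the 14 libraries was 0.12 for pairs within the cluster, with a range of -0.57 to 0.59, where low counts add noise.

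**Figure D4:**
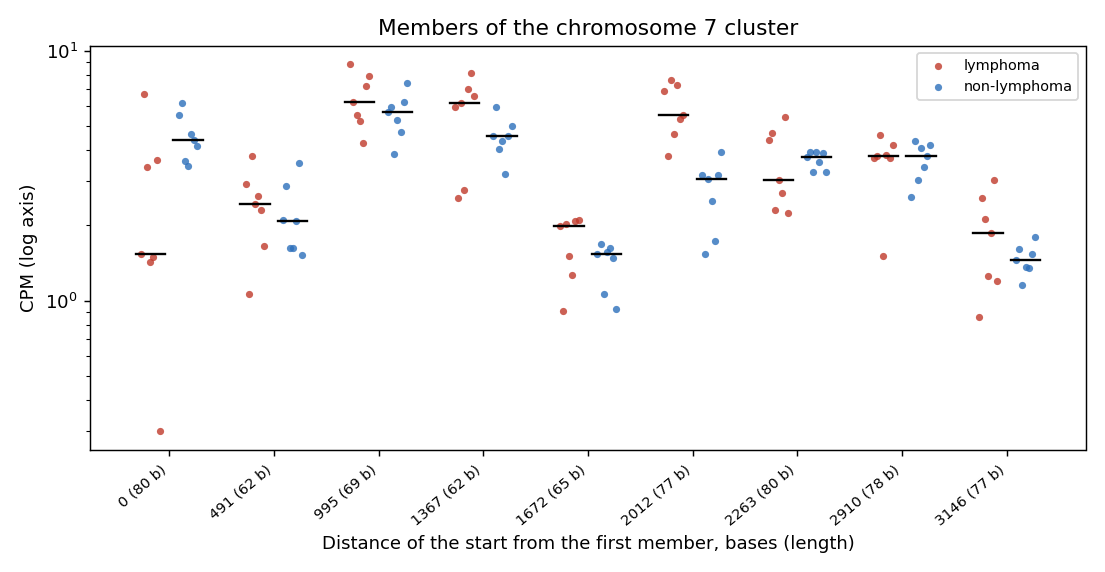
CPM on a log axis of the 9 members of the chromosome 7 cluster, placed in genomic order and labelled by the distance of their start from that of the first member and by length; points are libraries (red lymphoma, blue non-lymphoma) and black bars group medians. The first member lies lower in 5 lymphoma libraries and the sixth lies higher in lymphoma, while the other 7 were not called.

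None of the members of the other 5 clusters of 3 or more was called. On chromosome 18, between 53842200 and 53844541, 4 members on the plus strand differed widely in level: the 76-base gene had 73.6 CPM per 100 bases and its 3 neighbours 0.832 to 1.4. On chromosome 5, 3 members at 39488649 to 39490064 had log2 fold changes of 0.28, 0.03 and -1.08, the last with an edgeR adjusted p of 0.101. Inside a 12-exon gene of chromosome 6, 3 members at 70831562 to 70833747 also differed in sign, with 0.47 and -0.79 for the 2 tested. The untested one, 72 bases long, had medians of 1.51 CPM in lymphoma and 0.481 CPM in non-lymphoma blood. On chromosome 21, members of opposite strands at 7020768 to 7030355 had log2 fold changes of 0.05 to 1.04, and on chromosome 15 those at 15542854 to 15544893 had -0.53 and -0.4 for the 2 tested.

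Some pairs that share a host tracked each other across libraries, and others did not. In an intronic pair of chromosome 24 at 35958821 to 35959344 the correlation was 0.86 and the log2 fold changes were 1.03 and 1.3 (edgeR adjusted p = 0.0821 and 0.0605). In a pair of chromosome 9 at 43781856 to 43782589 it was 0.9, and the fold changes were 0.23 and -0.11. Other pairs within 1 host had 0.79 (chromosome 9, 46423917) and 0.75 (chromosome 24, 18563594). Lower values were 0.23 (chromosome 1, 25837191) and -0.09 (chromosome 7, 79264582). Over all members, the median correlation over 14 libraries was 0.17 for 63 pairs within a cluster and 0.06 for 5293 pairs from different clusters. All pairs share the libraries and their depth. The members most like ENSCAFG00000025711 in pattern over the 14 libraries were a 105-base gene of chromosome 11 at 19741131 (r = 0.74), a 104-base gene of chromosome 20 at 5374418 (0.71) and a 72-base gene of chromosome 3 at 35833927 (0.69).

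Members inside introns were compared with their hosts, because an RNA cut from an intron comes from the host's transcript. A tested host on the same strand was found for 47 tested members, in 39 host genes. The member lay below its host in level per length in all but 8 pairs, with medians of 1.6 and 4.86 CPM per 100 bases. Member and host correlated with a median r of 0.46 over the 14 libraries, from -0.7 to 0.93, and the 2 log2 fold changes had the same sign in 31 of 47 pairs. Of the hosts, 3 were called higher and 0 lower by edgeR.

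The difference between member and host, as log2 CPM of the member minus that of the host, was tested between groups by a two-sided exact permutation test over all assignments of 7 of the 14 libraries to lymphoma, with p-values adjusted over the 100 such pairs of the whole table, which include longer single-exon genes. It was higher in lymphoma for 7 of the 47 members and lower for 0. Over the 100 pairs, 14% were higher and 1% lower, and the median difference was 0.15 for the members and 0.24 for all pairs. At an unadjusted exact p under 0.05, 14 of the 47 members were higher and 3 lower, beside 26 and 6 of all 100 pairs, which are similar shares. The 102-base gene of chromosome 17 differed from its host by 1.4 (exact p = 0.000583, the smallest the assignments allow, adjusted p = 0.0146). This gene met the rule through the lymphoma libraries, where it is high, so its p-value is given only as a description. Its host, at 51251520 to 51318590, was not called (log2 fold change 0.12, SE 0.15, edgeR adjusted p = 0.583), with 168 to 251 CPM in lymphoma and 150 to 221 CPM in non-lymphoma blood. The 107-base gene of chromosome 32 differed by 1.55 (adjusted exact p = 0.0291, host log2 fold change 0.06), the one of chromosome 1 by 1.35 (adjusted exact p = 0.0359, host -0.13) and the one of chromosome 4 by 0.89 (adjusted exact p = 0.025, host 0.14). The chromosome 32 gene met the rule mostly through lymphoma libraries, so its p-value is also given only as a description.

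In the other 3 the host's fitted value was -0.54 or lower, further below 0 than the -0.13 of the chromosome 1 host. A 103-base gene of chromosome 12 at 4814312 to 4814414 had a log2 fold change of -0.03 and its host -1.27 (difference 1.5, adjusted exact p = 0.0466), and neither was called. This member's medians were 4.46 CPM in lymphoma and 0.616 CPM in non-lymphoma blood, with all 7 lymphoma libraries above the non-lymphoma median. Non-lymphoma replicates 4 and 5 reached 13 and 12.5 CPM. The fold changes are edgeR fits and the tested difference is one of log2 CPM, so they are unlike measures. A 95-base gene at 53937443 and a 71-base gene at 43781856 of chromosome 9 had 0.68 and 0.23 and their hosts -0.54 and -0.85 (differences 1.15 and 1.3, adjusted exact p = 0.0359 for both). The medians of these 2 members were 2.39 and 2.67 CPM in lymphoma and 1.35 and 1.12 CPM in non-lymphoma blood. How much of each difference lay in the member or in its host was not tested. The called gene of chromosome 12 at 37264580 differed from these 7. Its host rose as well (log2 fold change 0.55, edgeR adjusted p = 0.0116), the pair correlated with r = 0.87, and the difference of 0.63 did not pass (adjusted exact p = 0.0583). The count of 7 depended on single libraries: it was 1 without lymphoma replicate 2, 4 without replicate 3 and 2 without replicate 5. It was 3, 3, 4, 2 and 3 without non-lymphoma replicates 1, 2, 3, 6 and 7. Over all 100 pairs the count of 14 likewise moved between 4 and 17 with 1 library left out. The 5-digit libraries could not test this: their 36 assignments give a smallest exact p of 0.0278, which at least 56 of the 100 pairs would have to reach for any to pass.

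**Figure D5:**
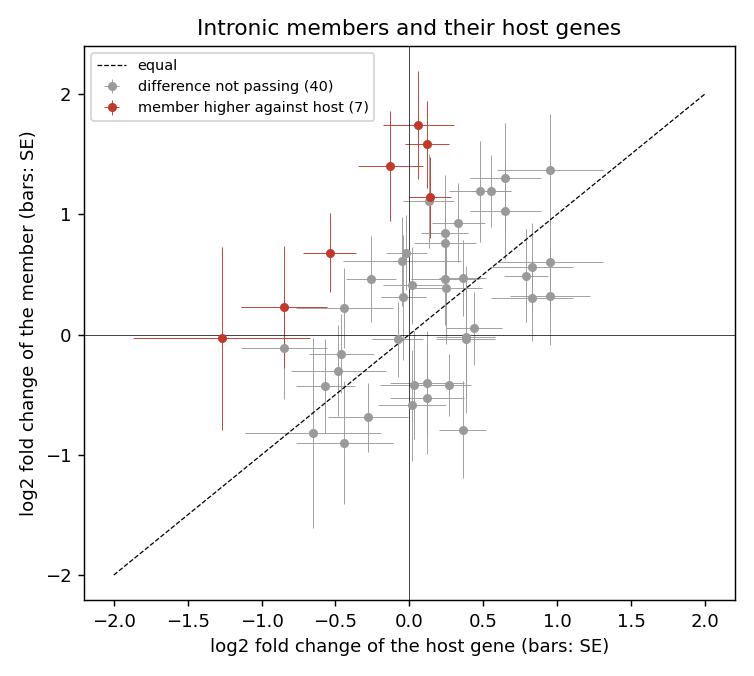
Log2 fold change (lymphoma over non-lymphoma) of 47 intronic members against that of their same-strand host genes, with SE bars; the dashed line marks equal values. The 7 members whose difference from the host was higher in lymphoma (red) lie above the line, 4 of them with a host near 0 and 3 with a host at -0.54 or lower.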

How the data were processed

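Per the file headers, the authors counted read pairs per gene with featureCounts v2.0.1 over exons of Ensembl release 103 for CanFam3.1, setting no strand, multi-mapping or multi-overlap option. The deposited values are raw counts. Per the submitters' processing notes, the tools also included Subread 2.0.1, HISAT2 2.2.1 and DESeq2. Per the labels' protocols, RNA was extracted with Trizol and libraries followed standard Illumina protocols; whether ribosomal RNA was removed is not given in the sources used here.

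Members and lists were chosen with earlier results of these data known. The fit, tested on simulated data, used edgeR 4.0.16 (R 4.3.3) on the whole table with TMM factors and the filterByExpr filter; group was the single term, and p-values were adjusted by Benjamini-Hochberg. SE is the absolute fold change over the square root of F. Log2 CPM used a prior count of 2. Hosts are the shortest same-strand multi-exon genes spanning a member without exon overlap; differences were tested by exact permutation (scipy 1.17.1, numpy 2.4.6, pandas 2.3.3, Python 3.11.15). Named genes are the up to 12 largest rises and falls among calls with at least 6 of 7 lymphoma libraries on that side of the non-lymphoma median, the 10 highest levels, and clusters of 3 or more. Alternatives used other scalings and filters, DESeq2 1.42.0, limma 3.58.1 and subsets of libraries. Gene lists and motifs set out in the plan needed symbols or sequence and were not run. No 2 libraries were near-identical (smallest chi-square per degree of freedom 62).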

Additional observations from a re-analysis of the deposited data

Results flagged for a closer look

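A library stood apart in 7 of the 82 sets of 7 same-group values checked; about 4.1 (1 in 20) would do so by chance. Numbers in brackets are the distance to the closest other library as a part of the set's whole range, in log2 CPM. Lymphoma replicate 2 lay below the other lymphoma libraries in 3 members, at chromosome 15, 15542854 (0.59), chromosome 18, 53842979 (0.687) and chromosome 21, 7020768 (0.704), with 0, 0 and 1 counts there. Lymphoma replicate 4 lay below the rest in the chromosome 7 cluster member at 25365524 (0.801). Non-lymphoma replicate 4 lay above the rest in the called gene of chromosome 12 at 37264580 (0.569). Non-lymphoma replicate 3 lay below the rest in the chromosome 15 member at 15544235 (0.68) and above it in the chromosome 21 member at 7030276 (0.661).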

How the results depend on the processing

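The 11 members called higher numbered 5 among the 29 with 10 counts in all 14 libraries, 6 among the 50 with 20 counts in 7 libraries, 1 at an adjusted p under 0.01 (2.6% of all genes), 6 with no filter on low counts (3.03% of all genes), 4 with the replicate block (3.43%), 19 with DESeq2 (13.3%) and 0 within the 5-digit libraries (0.562%), beside 9.21% of all genes in the reported fit. In the last 5 of these settings the number of members called moved in the same direction as the share of all genes called; the cause was not tested. The member called lower was lost within the 5-digit libraries (0) and is not among members with 10 counts in all libraries (0). Leaving out 1 library gave 8 to 14 called higher and 1 to 3 called lower (8.25% to 13.7% and 0.98% to 3.09% of members tested). Of all genes, 6.36% to 10.8% were called higher and 4.39% to 8.62% lower in these fits. Of the reported 11, 7 to 11 stayed called. Without lymphoma replicate 2, 8 of the 14 called were among the 11, and without non-lymphoma replicate 6, 7 of the 8. The median log2 fold change of members was 0.23 to 0.34. Against their hosts, 1 to 9 members were higher and 0 to 2 lower. Within the 5-digit libraries 0 were higher, but the smallest exact p of 0.0278 left that test void. Without the 2 shallowest libraries, chosen after seeing the data, 11 were called higher, 5 of them shared with the 11 above. The difference in the share of counts moved from 0.00559 to 0.0193 percentage points when the 20 most abundant genes were left out of the totals. No fold change of a called member changed sign in the settings run. Over all genes, the replicate block moved the calls from 1182 higher and 950 lower to 440 and 285. The labels do not state that equal numbers in the titles pair libraries. Deviations of same-numbered libraries correlated from -0.34 to 0.35, above 0.1 in 1 of 7 pairs, and 1 of 7 lymphoma libraries correlated best with its own number. Low correlations cannot exclude a pairing by design. With upper-quartile factors the calls over all genes became 985 higher and 1181 lower. Depth limits most members, with a median of 268.5 counts over 14 libraries and a median SE of 0.38.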
